A study of Mus musculus with 125 samples.

Results

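The genes described here were chosen by measured levels, for being nearly absent from C57BL/6 parthenotes, embryos that started development without a sperm, while present in 2-cell hybrids of C57BL/6 and JF1/Ms. A gene was taken when its mean was at least 5 CPM (the gene's count divided by the library's total count, scaled to 1e6) in 2PN hybrids and at most 1/16 of that mean in C57BL/6 parthenotes. Chromosome Y genes, ribosomal protein, mitochondrial and Usp17l genes, and Npy, Txndc8, Serpinb3b, Zrsr1, Snrpn and Mcts2 were left out by name. The rule found 83 of the 43421 genes in the table, or 0.753% of the 11027 genes outside these exclusions that reached the CPM minimum. It removed 11 others by name or chromosome.

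Each library was made from 1 mouse 2-cell embryo, of which 43 were 2PN and 11 were 1PN embryos of C57BL/6 xJF1/Ms (called B 2PN and B 1PN below, for the number of pronuclei scored and called), and 8 were 1PN embryos of that cross called Parthenote in silico by the submitters (B called parthenotes). Of the opposite cross, JF1/MsxC57BL/6, there were 21 2PN embryos (J 2PN), 3 1PN embryos (J 1PN, numbers 4, 5 and 6) and 4 1PN embryos called Parthenote in silico (J called parthenotes, numbers 1, 2, 3 and 7). The other 31 were parthenotes of C57BL/6. All came from zygotes selected at 10 h, had the second polar body removed, and were collected at 34 h after fertilization; the labels give no genetic change and no drug for any group. Neither the maternal strain of each cross, nor how the in silico call was made, nor which embryos shared parents is given in the labels, so p-values measure the spread between these embryos. The counts hold no allele information, and in a whole embryo fewer cells and less RNA per cell cannot be told apart.

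A parthenote has maternal chromosomes and no paternal ones, so genes read only from the paternal copy are silent in it. A hybrid embryo also carries alleles of a second strain, and JF1/Ms, derived from Japanese wild mice of the subspecies Mus musculus molossinus, differs from C57BL/6 at many positions. A gene can therefore be low in a C57BL/6 parthenote through parent of origin or through strain. At the 2-cell stage the mouse embryo starts its main wave of transcription while RNA stored in the oocyte is removed.

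In the J called parthenotes 60 genes had a mean CPM of at least 1/4 of that in J 2PN embryos, 14 lay between 1/4 and 1/16, 8 were at 1/16 or lower, and 1 gene, Trdv2-2, had no count in J 2PN embryos. The genes are called here by their rule. By RefSeq type, 35 were protein coding, 26 were pseudogenes, 5 were long noncoding RNAs, 2 were antigen receptor V segments and 15 had no match. In 47 of the 83, at least 10% of the values above 0 were not whole numbers, which comes from reads shared with other genes, so the level of these genes is uncertain against their near-identical copies.

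The RefSeq promoter windows of 5 genes are shown as examples of the patterns described below: Slco6d1 was present in both crosses and in J called parthenotes 3 and 7, Flrt2 and Adh7 were at or near 0 in all 4 J called parthenotes, Apobec1 was near 0 in the whole JF1/MsxC57BL/6 cross, and Obp1b is on chromosome X. Each runs 5′ to 3′ on the gene's strand from 250 bases before to 50 bases after the annotated start in the reference genome (GRCm38.p6), which is C57BL/6 sequence and not the JF1/Ms allele; capitals mark CG dinucleotides. Their positions are chr1:98420874-98421173 on the plus strand for Slco6d1, chr12:95691976-95692275 (plus) for Flrt2, chr3:138217523-138217822 (plus) for Adh7, chr6:122602395-122602694 (minus) for Apobec1 and chrX:78186558-78186857 (plus) for Obp1b.
Slco6d1: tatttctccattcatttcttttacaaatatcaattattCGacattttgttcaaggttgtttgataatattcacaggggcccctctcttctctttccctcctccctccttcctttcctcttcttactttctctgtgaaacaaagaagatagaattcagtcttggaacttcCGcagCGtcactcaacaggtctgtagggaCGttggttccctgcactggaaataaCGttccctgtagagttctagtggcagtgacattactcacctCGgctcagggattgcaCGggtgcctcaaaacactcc
Flrt2: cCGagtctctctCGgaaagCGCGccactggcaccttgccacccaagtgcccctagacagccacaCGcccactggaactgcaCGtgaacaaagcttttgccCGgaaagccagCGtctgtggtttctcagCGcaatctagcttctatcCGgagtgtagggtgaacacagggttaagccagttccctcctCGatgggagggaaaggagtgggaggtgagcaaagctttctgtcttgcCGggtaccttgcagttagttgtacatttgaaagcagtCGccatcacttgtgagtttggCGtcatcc
Adh7: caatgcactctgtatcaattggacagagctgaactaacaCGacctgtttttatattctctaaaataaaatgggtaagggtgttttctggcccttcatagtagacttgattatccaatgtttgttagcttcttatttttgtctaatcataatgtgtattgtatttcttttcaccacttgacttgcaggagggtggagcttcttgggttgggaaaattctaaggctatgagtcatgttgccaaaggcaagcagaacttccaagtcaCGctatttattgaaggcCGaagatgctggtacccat
Apobec1: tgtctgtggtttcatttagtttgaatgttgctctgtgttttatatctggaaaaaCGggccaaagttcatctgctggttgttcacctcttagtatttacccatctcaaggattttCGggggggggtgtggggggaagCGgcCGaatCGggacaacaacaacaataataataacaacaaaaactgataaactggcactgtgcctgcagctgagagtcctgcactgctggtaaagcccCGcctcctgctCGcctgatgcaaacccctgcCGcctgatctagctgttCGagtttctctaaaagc
Obp1b: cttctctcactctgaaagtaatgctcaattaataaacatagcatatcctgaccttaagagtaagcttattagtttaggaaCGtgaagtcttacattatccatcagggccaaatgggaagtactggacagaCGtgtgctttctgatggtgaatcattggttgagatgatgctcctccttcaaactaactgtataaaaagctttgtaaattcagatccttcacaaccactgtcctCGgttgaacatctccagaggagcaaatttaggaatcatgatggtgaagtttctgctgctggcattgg

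The Flrt2 window holds 14 CG dinucleotides, Apobec1 9, Slco6d1 7, and Adh7 and Obp1b 3 each. Over the 34 of the 83 genes with a window in the RefSeq table the median was 3, against 7 over 27025 genes with 1 window each, and 18 of the 34 held at most 3, against 31.9% of all. TATAAA, searched on both strands like the other motifs, was in 10 of the 34 windows and in 14.2% of all. GGGCGG was in 7 and in 35.9%, CCAAT in 9 and in 37.9%, and TAATCC in 3 and in 7.16%. The window of Gm14743, a neighbour of Obp1b at a distance of 48220 bases on chromosome X, shares an unbroken run of 291 of its 300 bases with that of Obp1b.

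Library totals ranged from 533276 counts in a J 2PN embryo to 4887270 in a B 2PN embryo. J called parthenotes 1 and 2 stood apart from the other libraries. Their summed CPM over 7 markers of the 2-cell stage, such as Zscan4d and Zfp352, was 14.2 and 180, against 3560 and 2846 in embryos 3 and 7 and 2164 to 3665 in J 1PN embryos; 4 of the 7 were at 0 in embryo 1 (Zfp352, Zscan4c, Zscan4d and Eif1a) and 2 in embryo 2 (Zscan4c and Eif1a). Over 11 oocyte markers, such as Btg4 and Bmp15, they had 10265 and 13649, against 3142 and 2768 in embryos 3 and 7 and 582 to 1060 in J 1PN embryos. Most of these sums in embryos 1 and 2 came from Btg4, at 5631 and 6786 CPM, and Bmp15, at 2087 and 4040. Not every oocyte marker was high there. Zp3 was at 22.7 and 17.04 CPM in embryos 1 and 2, against 40.5 and 40.9 in embryos 3 and 7. Tle6 was at 40.2 and 52.4 against 50.9 and 54.9. Embryos 3 and 7 differed from J 1PN embryos in single markers too. Zscan4d was at 1174 and 1236 CPM in embryos 3 and 7 against 31.4 to 137 in J 1PN embryos. Eif1a was at 134 and 190.5 against at least 423, and Tcstv1 in embryo 7 at 0.998 against 165 to 494. Spearman's correlation of each embryo with the J 2PN mean, across genes within 1 embryo, was 0.526, 0.558, 0.764 and 0.705 in embryos 1, 2, 3 and 7 and 0.851 to 0.874 in J 1PN embryos. Embryos 1 and 2 were the deeper libraries, with 3768466 and 3521234 counts against 1532065 and 1002464, and embryos 3 and 7 had 6.85% and 8.06% of their counts in mitochondrial genes, against 2.41% to 3.21% in J 1PN embryos. B 2PN embryo 30 had a summed CPM of the 83 genes of 543, against 1553 in the next lowest B 2PN embryo. It entered the rule, the view of X-linked genes below and a fit of all 7 groups, and none of the main tests. For the J called parthenotes, the level of genes described is therefore mostly given by embryo. The counts of calls and the medians are given also with J called parthenotes 1 and 2 left out. The part of embryo stage in these results was not tested.

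**Figure D1:**
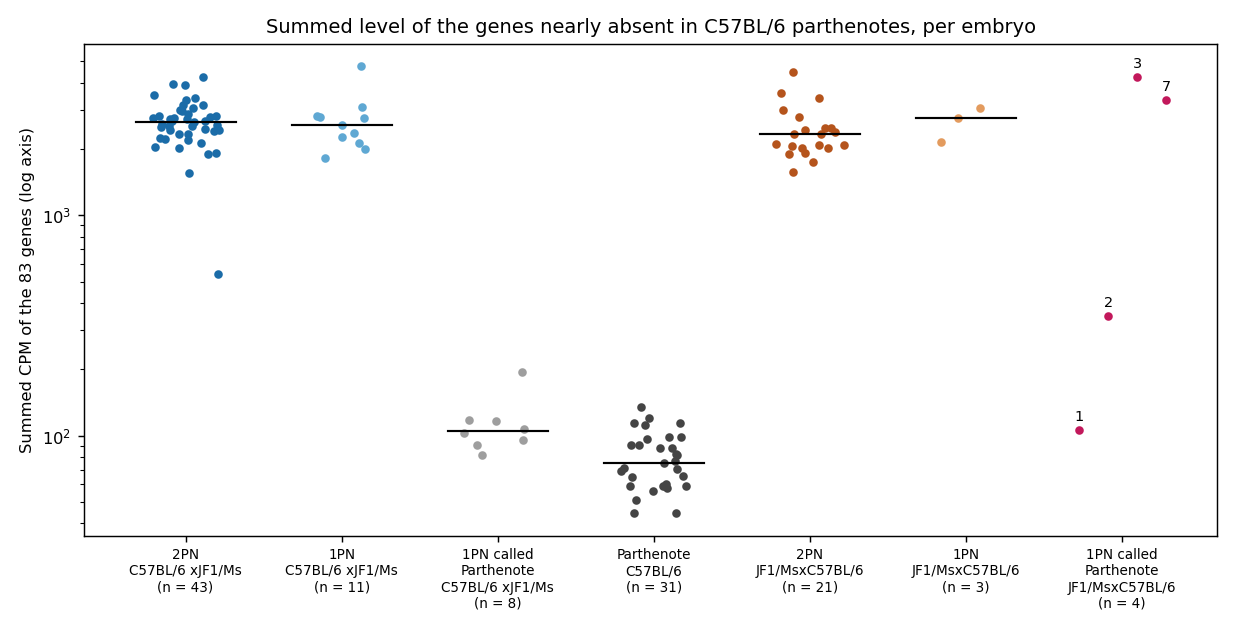
Summed CPM of the 83 genes in each embryo (log axis), by group; points are embryos, bars are group medians, and the 4 J called parthenotes carry their numbers and no bar. The C57BL/6 parthenotes and the B called parthenotes sit at or below 195, J called parthenotes 3 and 7 at 4254 and 3318, and embryos 1 and 2 at 106 and 350.

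The 83 genes together made up a mean of 2647 CPM ± 645 (SD, n = 43) in B 2PN embryos and 79.0 ± 23.4 (n = 31) in C57BL/6 parthenotes, the groups that chose them. In the groups the rule did not use, their sum was 2666 ± 791 (n = 11) in B 1PN embryos, 2439 ± 685 (n = 21) in J 2PN embryos and 2662 ± 460 (n = 3) in J 1PN embryos. It was 113 ± 35.3 (n = 8) in B called parthenotes, with a range of 81.3 to 195. The 4 J called parthenotes had 106, 350, 4254 and 3318 in embryos 1, 2, 3 and 7. Embryos 3 and 7 thus lay in the range of hybrids with 2 pronuclei, embryo 1 in the range of B called parthenotes, and embryo 2 above that range and below every J 2PN embryo.

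Single genes showed the same split between embryos. Embryos 1, 2, 3 and 7 had at least 1 count for 19, 42, 62 and 64 of the 83 genes, and lay above the highest B called parthenote for 12, 28, 59 and 60 of them, against 16.6%, 17%, 15.5% and 16.4% of all genes tested. They lay below the lowest B called parthenote for 5, 3, 1 and 0, against 28.1%, 25.6%, 18% and 20.9%. They were above the highest J 2PN embryo for 0, 1, 14 and 17 genes, against 10.4%, 10.8%, 5.82% and 7.84% of all, and below the lowest for 15, 13, 3 and 3, against 11.9%, 10.6%, 2.62% and 4.66%. For embryos 3 and 7 the last counts were near the shares over all genes. The group means of B 2PN embryos ran from 5.19 to 528 CPM over the 83 genes, with a median of 11.3, and 8 genes had no count in any C57BL/6 parthenote. Just inside the ratio of the rule were Gm12315, with a C57BL/6 parthenote mean at 5.98% of the B 2PN mean, Gm5745 at 6.02% and Gm26619 at 6.16%; just outside were 4933406B15Rik at 6.43%, Gm46994 at 6.48% and Gm14400 at 6.50%.

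**Figure D2:**
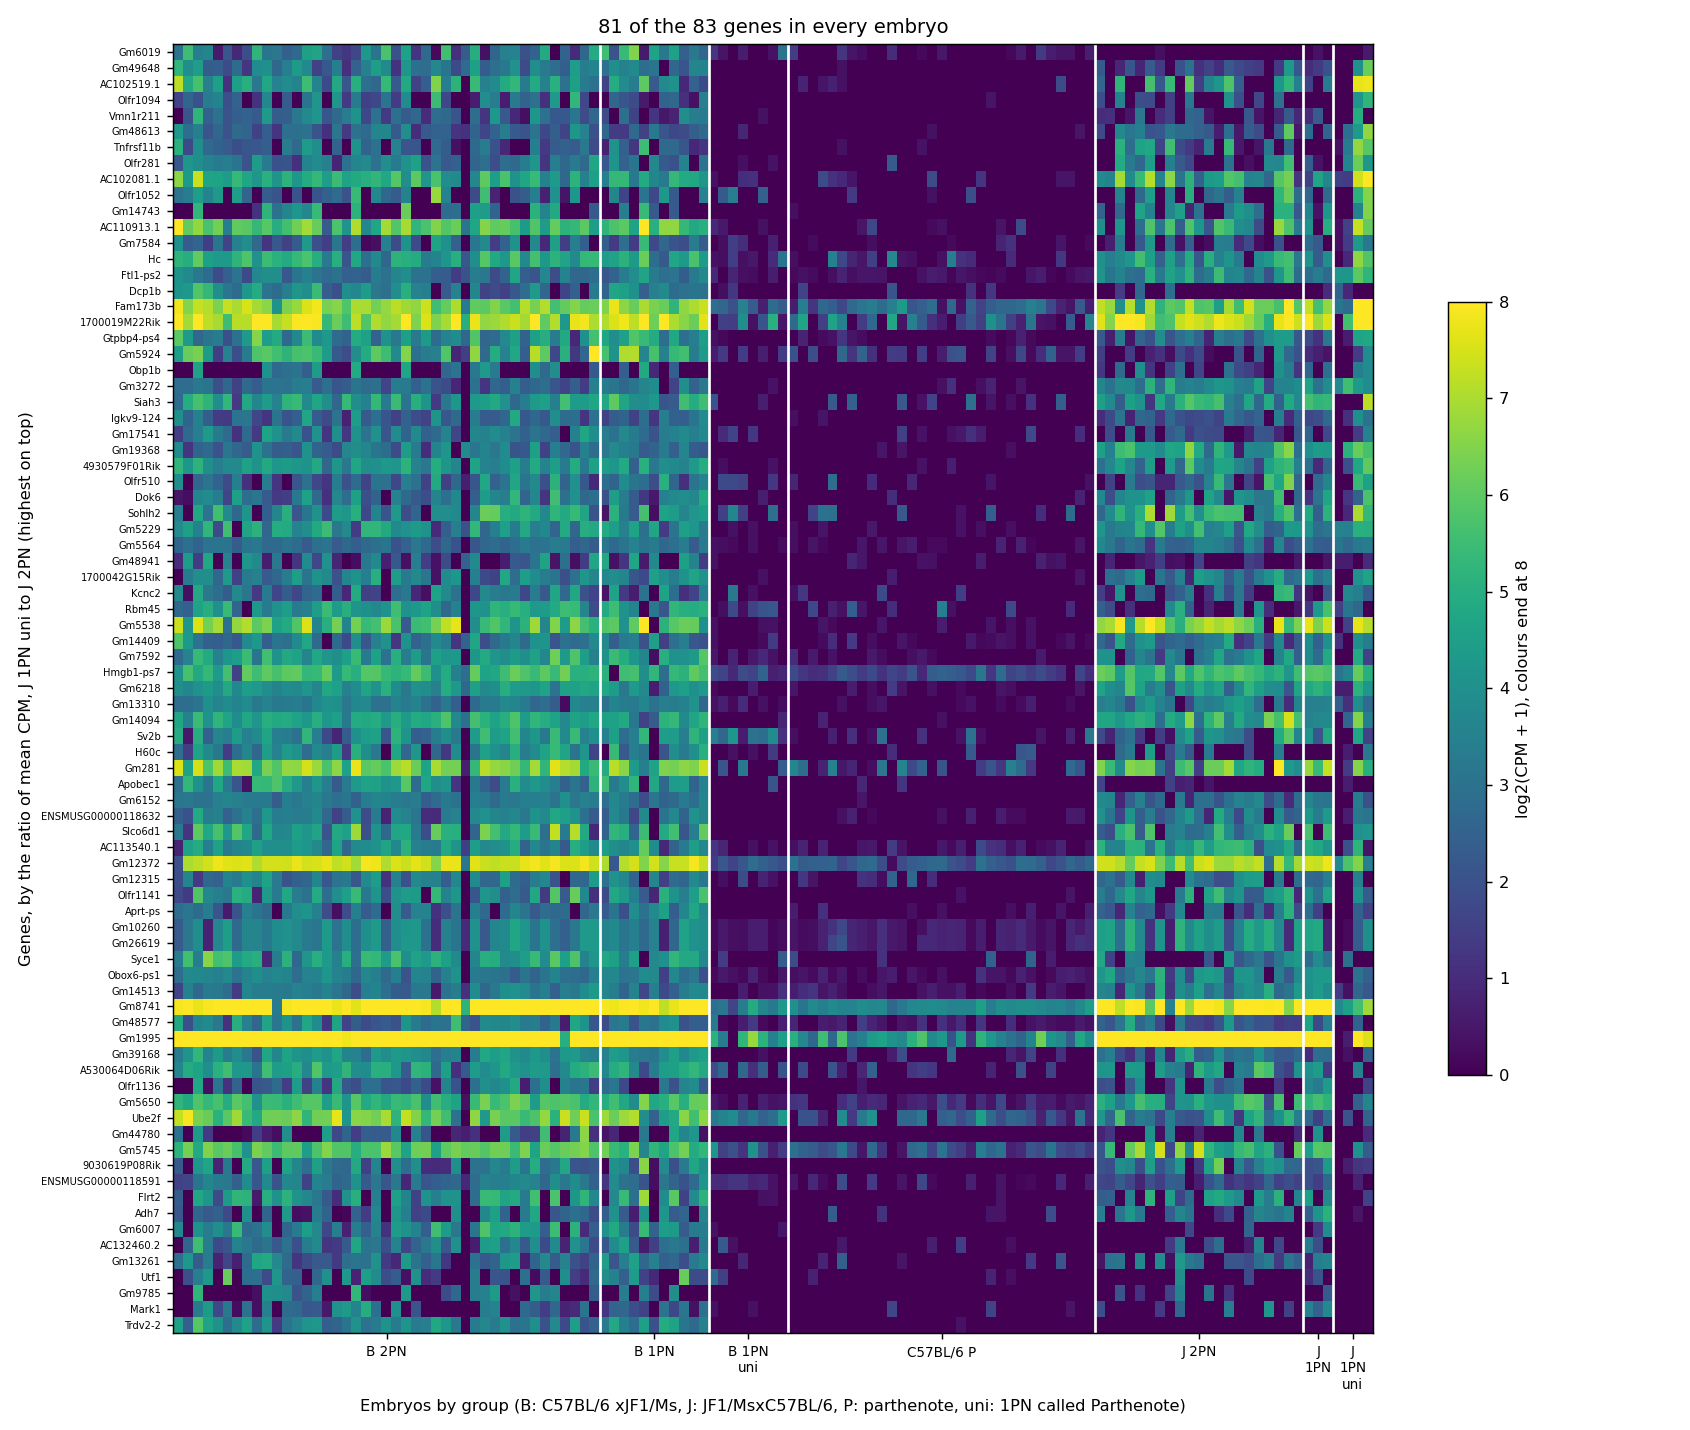
Level of 81 of the 83 genes (rows) in each embryo (columns), as log2(CPM + 1), with white lines between groups; B is C57BL/6 xJF1/Ms, J is JF1/MsxC57BL/6 and uni marks 1PN embryos called Parthenote. Rows run from the highest to the lowest ratio of mean CPM between J called parthenotes and J 2PN embryos, and the columns of J called parthenotes 3 and 7 carry signal in most of them.

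The 5 groups outside the rule were tested with edgeR (quasi-likelihood F test, Benjamini-Hochberg adjustment over 20539 genes, adjusted p under 0.05), and all 83 genes were among those tested. The comparisons share groups, so their counts are not independent of each other. In C57BL/6 xJF1/Ms, 74 of the 83 were lower in called parthenotes than in B 1PN embryos, where 1.97% of all genes tested were. None was higher, by edgeR, DESeq2 or limma voom, where edgeR called 1.02% of all genes higher; at an unadjusted p under 0.05 by edgeR the count was also 0, against 9.57% of all genes. The median log2 fold change of the 83 was -5.86, or -5.54 with genes without a count in 1 group set at the bound that 3 counts allow, against 0.12 over all genes. Every one of the 8 called parthenotes lay below every one of the 11 B 1PN embryos for 37 of the 83, against 0.555% of all genes tested. Most of the genes chosen on C57BL/6 parthenotes were thus low also in this separate group of called parthenotes.

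Between the called parthenotes of the opposite crosses, 53 of the 83 were higher in JF1/MsxC57BL/6, against 7.65% of all genes, and 1, Gm6019, was lower, against 16.4%. With embryos 1 and 2 left out the counts were 53 and 0. Of the 53, 52 were called higher also without those embryos, against 3.68% of all genes in that fit; the other was 9030619P08Rik. The median log2 difference was 3.76 over the 83 and -0.60 over all genes. Without embryos 1 and 2 it was 4.83 and -0.76. In 9 of them all 4 J called parthenotes, embryos 1 and 2 included, lay above all 8 B called parthenotes, against 3.0% of all genes. For 1 of the 9, Tnfrsf11b, embryo 1 had only 1 count.

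Within JF1/MsxC57BL/6, 2 of the 83 (Gm49648 among them; 0 without embryo 7) were higher in called parthenotes than in J 2PN embryos, against 9.33% of all genes, and 15 were lower, against 17.7%. The share of lower genes was thus close to that over all genes and is not a result about the set. Leaving out embryo 1, 2, 3 or 7 alone gave 3, 5, 18 and 12 genes called lower. Without embryos 1 and 2 both the count was 0, where the fit compared 2 embryos with 21. The median log2 fold change was -0.64, against -0.42 over all genes. Without embryos 1 and 2 it was -0.019, against -0.63. The difference between crosses, that is the log2 fold change of called parthenotes against J 2PN embryos less that of B called parthenotes against B 1PN embryos, was above 0 in 50 of the 83, against 1.31% of all genes, and below 0 in none by edgeR, DESeq2 or limma voom, where edgeR called 5.54% of all genes below 0. At an unadjusted p under 0.05 by edgeR the count below 0 was also 0, against 19.2% of all genes. With embryos 1 and 2 left out 50 were again above 0, of which 46 were the same genes, against 0.938% of all genes. The median was 4.95, against -0.48 over all genes. It was 5.71, against -0.78, without embryos 1 and 2. The comparison group had 2 pronuclei in one cross and 1 in the other, and the part of that number in the difference was not tested.

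**Figure D3:**
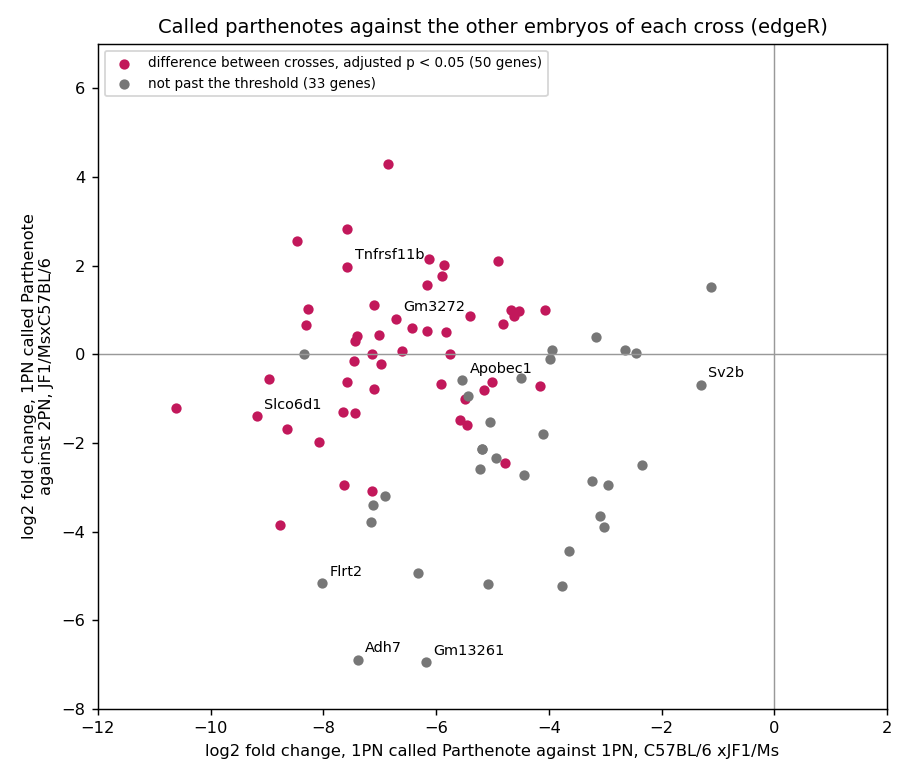
The edgeR log2 fold change of each of the 83 genes in called parthenotes against B 1PN embryos of C57BL/6 xJF1/Ms (x axis) and against J 2PN embryos of JF1/MsxC57BL/6 (y axis); coloured points are the 50 genes whose fold change differed between crosses. All points lie left of 0 on the x axis, and on the y axis they scatter on both sides of 0, with Adh7 and Gm13261 lowest.

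The largest set, 37 genes, was lower in B called parthenotes than in B 1PN embryos, higher in J called parthenotes than in B called parthenotes and different between crosses, and passed the threshold in neither direction in J called parthenotes against J 2PN embryos or in J 2PN against B 1PN embryos. Fam173b, which encodes the methyltransferase of a subunit of mitochondrial ATP synthase (RefSeq name Atpsckmt), was at 36.7, 95.6 and 219 CPM (lowest, median, highest) in B 1PN embryos and at 0.590, 4.62 and 10.6 in B called parthenotes. It was at 15, 61.8 and 2179 in J 2PN embryos, at 156, 48.1 and 102 in J 1PN embryos 4, 5 and 6, and at 7.70, 5.96, 925 and 419 in J called parthenotes 1, 2, 3 and 7. Embryos 1 and 2 overlapped the B called parthenotes and embryos 3 and 7 were above all of them. The log2 difference between the called parthenotes was 6.06 (SE 0.98, adjusted p = 1.2e-05, edgeR), and 7.10 without embryos 1 and 2.

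Tnfrsf11b, which encodes the secreted decoy receptor osteoprotegerin, was at 0, 3.37 and 44.9 CPM in B 1PN embryos and had no count in B called parthenotes. It was at 0, 2.04 and 45.7 in J 2PN embryos, at 0 in all 3 J 1PN embryos, and at 0.265, 9.09, 102 and 59.9 in J called parthenotes 1, 2, 3 and 7. All 4 J called parthenotes were thus above all B called parthenotes, embryo 1 by only 1 count, and embryos 3 and 7 were above every J 2PN embryo. The gene was at least 392-fold higher in J than in B called parthenotes, with the empty group set at 3 counts over its 8 embryos (adjusted p = 0.000275, edgeR). It was at least 211-fold higher without embryo 3. Against J 2PN embryos the log2 fold change was 1.98 (SE 1.12, adjusted p = 0.175).

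Slco6d1, of the organic anion transporter family, had no count in B called parthenotes and none in C57BL/6 parthenotes, and was at 0, 28.8 and 66.6 CPM in B 1PN embryos. It was at 0, 9.84 and 71.3 in J 2PN embryos, at 51.4, 0 and 44.7 in J 1PN embryos, and at 0, 0, 15.7 and 17 in J called parthenotes. Embryos 3 and 7 lay inside the range of J 2PN embryos. It was at least 74.5-fold higher in J than in B called parthenotes (adjusted p = 0.000782, edgeR). Without embryo 7 it was at least 47.7-fold higher. Gm5538, a gene of the arylacetamide deacetylase-like family (RefSeq name Aadacl2fm2), was at most 0.318 CPM in B called parthenotes and at 0, 1.99, 207 and 138 in J called parthenotes, with a log2 difference of 9.05 (SE 1.24, adjusted p = 4.76e-07, edgeR). Hc, which encodes complement component C5, was at 0, 0.852, 101 and 55.9 in J called parthenotes and at most 7.68 in B called parthenotes, a log2 difference of 4.8 (SE 0.97, adjusted p = 0.000406, edgeR).

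Other genes of this set rested on a single embryo. Siah3, a relative of the Siah ubiquitin ligases, was at 0, 0, 0 and 142 CPM in J called parthenotes 1, 2, 3 and 7, and at 1.31, 22.3 and 58.6 in J 2PN embryos; its log2 difference to B called parthenotes was 5.99 (adjusted p = 0.000194, edgeR) and -3.59 (adjusted p = 0.114) without embryo 7. Dok6, a docking protein of receptor tyrosine kinases, was at 0, 1.42, 4.90 and 50.9, and its difference between crosses of 6.68 (adjusted p = 0.000936, edgeR) was 4.03 (adjusted p = 0.0598) without embryo 7. Vmn1r211, a vomeronasal receptor gene, was at 0, 0, 30 and 0, with a log2 difference to B called parthenotes of 6.44 (adjusted p = 0.00186, edgeR) and -0.84 (adjusted p = 0.617) without embryo 3.

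**Figure D4:**
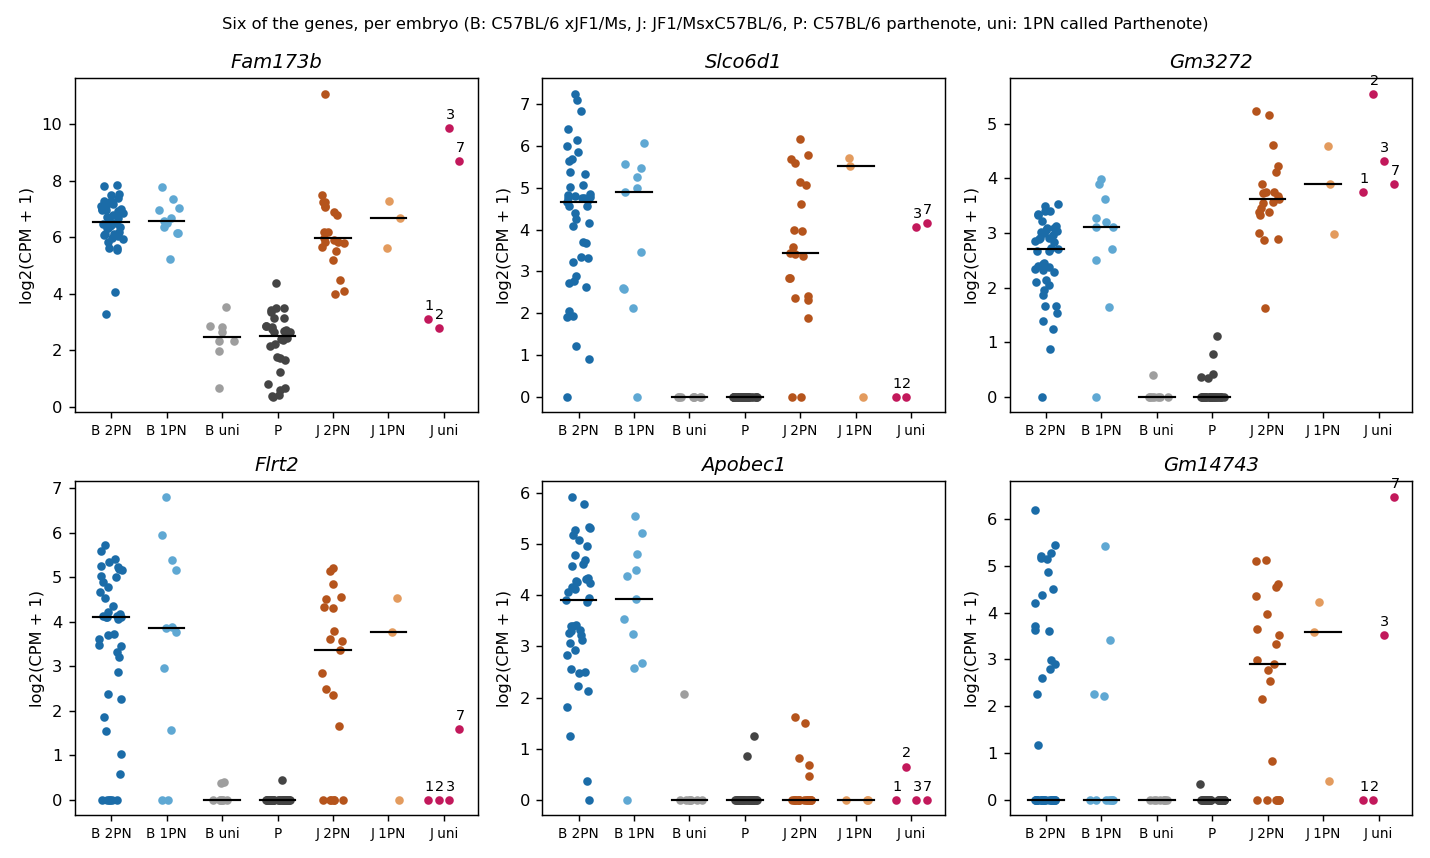
log2(CPM + 1) of 6 of the genes in every embryo by group (points are embryos, bars are group medians, and the J called parthenotes carry their numbers and no bar). Fam173b and Slco6d1 are present in J called parthenotes 3 and 7, Gm3272 in all 4, Flrt2 and Apobec1 in at most 1 of the 4 and at 2.00 CPM or less, and the X-linked Gm14743 is at 0 in most B 2PN embryos.

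Receptors and carriers of smell made up 8 of the 83 genes, or 9.64%. The list of chemosensory and urinary protein genes had 33 genes at the CPM minimum in B 2PN embryos, and these 8 were 24.2% of them, against 0.753% over all genes; the list was drawn up with results of these data known. Olfactory receptors are expressed one at a time in sensory neurons of the nose, and their transcripts are found in other tissues as well. Olfr281 was at 0, 11.2, 71.8 and 18 CPM in J called parthenotes 1, 2, 3 and 7 and at most 0.318 in B called parthenotes, a log2 difference of 7.74 (SE 1.63, adjusted p = 0.00063, edgeR). Olfr1094 was at 0, 0, 17 and 36.9 against no count in B called parthenotes, at least 123-fold higher and at least 51.7-fold without embryo 7 (adjusted p with all 4 = 0.00117, edgeR), while all 3 J 1PN embryos were at 0. Olfr1141 was at 0, 0, 15.7 and 3.99, at least 44.9-fold higher and at least 12.1-fold without embryo 3 (adjusted p with all 4 = 0.000589, edgeR); its difference between crosses of 6.96 had an adjusted p of 0.00195 and of 0.0516 without embryo 3.

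Of the same list, Olfr510 was higher in J than in B called parthenotes (log2 difference 3.80, adjusted p = 0.0275, edgeR), and the adjusted p was 0.149 without embryo 3 and 0.0532 without embryo 7. Olfr1052, at 0, 0, 34.6 and 89.8 CPM in J called parthenotes, and Olfr1136, at 0, 0, 0 and 2.00, did not pass this test (adjusted p = 0.095 and 0.137, edgeR). Olfr1136 and Olfr1141 are neighbours on chromosome 2 with a gap of 59109 bases. Over the 183 genes of the whole list that were tested, 34 were higher and 28 lower in J than in B called parthenotes. The shares over all genes were 7.65% and 16.4%.

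Several pseudogenes were present in all 4 J called parthenotes, also in embryos 1 and 2. Gm3272, a processed copy of the glycolysis gene Gapdh (RefSeq name Gapdh-ps16), was at 12.5, 46.0, 18.9 and 14 CPM in embryos 1, 2, 3 and 7, and at most 0.318 in B called parthenotes. It was at 2.08, 11.3 and 36.7 in J 2PN embryos and at 0, 7.66 and 14.9 in B 1PN embryos, with a log2 difference between the called parthenotes of 8.28 (SE 0.86, adjusted p = 8.43e-10, edgeR). The order of embryos that held for Fam173b, with 1 and 2 low, did not hold for this gene.

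Ftl1-ps2, a ferritin light chain pseudogene, was at 17.5, 17.7, 62.4 and 36.6 CPM in J called parthenotes and at most 0.857 in B called parthenotes (log2 difference 6.30, SE 0.76, adjusted p = 2.36e-08, edgeR). Gm5229 was at 10.8, 10.1, 32.9 and 31.9 against at most 0.296 (log2 difference 7.43, SE 0.84, adjusted p = 6.07e-09, edgeR). Gm5564 was at 7.56, 5.68, 8.49 and 9.48 against at most 0.286 (log2 difference 5.71, SE 0.72, adjusted p = 7.14e-08, edgeR). Of the 9 genes with no overlap between the called parthenotes, 7 were pseudogenes, 1 was Tnfrsf11b and 1, AC102081.1, had no RefSeq match. In Ftl1-ps2, Gm5229 and Gm5564, 85.8%, 57.8% and 45.0% of the values above 0 were not whole. Reads shared with other copies thus enter these 3. In Gm3272 1.14% were not whole, but whole values do not show which copy a read came from. How JF1/Ms reads aligned to the reference genome, which is C57BL/6 sequence, was not tested for these or the other pseudogenes.

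Some genes were at or near 0 in all 4 J called parthenotes. Flrt2 encodes a leucine-rich repeat adhesion protein and was on the list of genes with noncanonical imprinting, in which the maternal copy is silenced by a histone mark. It was at 0, 9.35 and 35.9 CPM in J 2PN embryos, at 22.2, 0 and 12.5 in J 1PN embryos and at 0, 0, 0 and 2.00 in J called parthenotes 1, 2, 3 and 7. In C57BL/6 xJF1/Ms it was at 0, 13.5 and 112 in B 1PN embryos and at most 0.318 in B called parthenotes. The log2 fold change was -8.02 (SE 1.47, adjusted p = 0.000364, edgeR) against B 1PN embryos in that cross and -5.16 (SE 1.82, adjusted p = 0.0305) against J 2PN embryos in the other, with no call of a difference between crosses (2.86, SE 2.27, adjusted p = 0.469). Without embryos 1 and 2 the second was -3.78 (adjusted p = 0.38), without embryo 1 alone -4.55 (0.105), without embryo 2 alone -4.66 (0.115) and without embryo 3 alone -4.82 (0.0738). Flrt2 was the only 1 of the 83 on that list, of which 7 genes reached the CPM minimum in B 2PN embryos.

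Adh7, an alcohol dehydrogenase that oxidises retinol, was at 0, 4.53 and 17.9 CPM in J 2PN embryos, at 4.37, 16.6 and 33.9 in J 1PN embryos and at 0, 0, 0.326 and 0 in J called parthenotes. The long noncoding RNA Gm13261 was at 0, 4.78 and 19.2 in J 2PN embryos, at 0.672, 10.0 and 11.2 in J 1PN embryos, and had no count in J called parthenotes. Mark1, a kinase that acts on microtubule-associated proteins, was at 10.7, 4.69 and 12.7 in J 1PN embryos, with a median of 0 and a highest value of 16.6 in J 2PN embryos, and had no count in J called parthenotes. All 3 were near 0 in each of the 4 J called parthenotes, including the shallower libraries of embryos 3 and 7. The lowest J 2PN value was also 0 for each of the 3. The part of embryo stage and of library depth in these levels was not tested.

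Against J 2PN embryos, Adh7 had a log2 fold change of -6.89 (SE 2.08, adjusted p = 0.0131, edgeR), with an adjusted p of 0.0513 without embryo 1, 0.0547 without embryo 2 and 0.242 without both. Gm13261 was at least 17.7-fold lower, with the empty group set at 3 counts over its 4 embryos (adjusted p = 0.00279, edgeR; 0.13 without embryos 1 and 2). Mark1 was at least 5.94-fold lower (adjusted p = 0.0481, edgeR; 0.0694 by DESeq2), and its adjusted p was 0.129, 0.128, 0.0787 and 0.0805 without embryos 1, 2, 3 and 7 in turn and 0.379 without embryos 1 and 2. The log2 fold change of Adh7 without embryos 1 and 2 was -6.91, with 2 embryos left in the group. The neighbour of Adh7 on chromosome 3, 4930579F01Rik, differed from it: it was at 0, 2.84, 26.4 and 63.8 CPM in J called parthenotes and higher than in B called parthenotes.

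The imprinted genes that the rule left out by name, or that are known to be read from the paternal copy, are given for scale. In J called parthenotes 1, 2, 3 and 7, Zrsr1 was at 0.796, 3.41, 0 and 0.998 CPM and Mcts2 at 0 in all 4, whereas the 3 J 1PN embryos had 21.8, 21.6 and 15.4 for Zrsr1 and 38.6, 28.1 and 49.5 for Mcts2. Snrpn was at 88.1, 179, 180.1 and 85.1 in J called parthenotes and at 448, 365 and 297 in J 1PN embryos, lower but not near 0. Npy, which the rule also left out, was at 0, 1.70, 551 and 480, and Serpinb3b at 0, 3.98, 102 and 419. Zrsr1 and Mcts2 were thus near 0 in embryos 3 and 7, as Flrt2 was, and Npy and Serpinb3b were high there, as Fam173b was. Of 29 paternally expressed imprinted genes tested, 6 were lower in J called parthenotes than in J 2PN embryos by edgeR, against 17.7% of all genes. None was higher, against 9.33%. The share of lower genes was thus near that over all genes and is not a result about the list. In the other cross 5 were lower in B called parthenotes than in B 1PN embryos, against 1.97%, and 0 were higher, against 1.02%.

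Other genes were low in the whole JF1/MsxC57BL/6 cross. Of the 83 genes, 14 were lower in J 2PN than in B 1PN embryos, against 9.19% of all genes, and 1, Gm19368, was higher, against 7.35%; the number of pronuclei differs between these groups too. Trdv2-2, a V segment of the T cell receptor delta locus, was at 2.97, 9.96 and 29 CPM in B 1PN embryos and had no count in any J embryo, 2PN, 1PN or called parthenote. It was at least 228-fold lower in J 2PN embryos (adjusted p = 1.26e-07, edgeR). Apobec1, the cytidine deaminase that edits apolipoprotein B mRNA, was at 0, 14.1 and 45.8 in B 1PN embryos, at most 2.07 in J 2PN embryos, at 0 in J 1PN embryos and at 0, 0.568, 0 and 0 in J called parthenotes (log2 fold change J 2PN against B 1PN -5.64, SE 0.80, adjusted p = 1.14e-06, edgeR). Both genes were at or near 0 in all groups of JF1/MsxC57BL/6; in C57BL/6 xJF1/Ms they were low in B called parthenotes as well, with means of 0 CPM for Trdv2-2 and 0.397 for Apobec1.

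Dcp1b, a cofactor of mRNA decapping, was at 4.44, 7.63 and 25.7 CPM in B 1PN embryos, at most 6.34 in J 2PN embryos and at 4.51, 0.852, 0 and 0 in J called parthenotes (J 2PN against B 1PN -3.91, SE 0.84, adjusted p = 0.000816, edgeR). Ube2f, an E2 enzyme for the ubiquitin-like protein NEDD8, was at 4.69, 71.4 and 133 CPM in B 1PN embryos and at 1.43, 9.34 and 50.8 in J 2PN embryos, overlapping ranges with a log2 fold change of -2.15 (SE 0.47, adjusted p = 0.000981, edgeR). Rbm45, an RNA-binding protein, was at 0, 28.6 and 44.6 in B 1PN embryos and at 0, 0.434 and 32.9 in J 2PN embryos (-2.40, SE 0.77, adjusted p = 0.0258, edgeR), and reached 49.8 in J 1PN embryo 6. Utf1, a chromatin factor of pluripotent cells, was at 0, 2.74 and 70.1 in B 1PN embryos, at most 14.6 in J 2PN embryos and without a count in J called parthenotes (J 2PN against B 1PN -3.65, SE 1.00, adjusted p = 0.00867, edgeR). Gm19368 went the other way, at 0.476, 19.4 and 100.3 in J 2PN embryos against 3.56, 7.97 and 12.6 in B 1PN embryos (1.89, SE 0.52, adjusted p = 0.00994, edgeR), and was at 0, 34.4, 69.8 and 49.9 in J called parthenotes. The 14 lower genes thus ran from no count in the cross to overlapping ranges.

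Chromosome X held 5 of the 83 genes, and in 3 of them the presence of a count followed chromosome Y transcripts within the C57BL/6 xJF1/Ms embryos. The counts of 5 Y-linked genes (Eif2s3y, Usp9y, Zfy1, Zfy2 and Ddx3y) split the 43 B 2PN embryos into 23 with 296 to 830 counts and 20 with at most 3; this view was chosen after the values were seen, and no test was made. Gm14743 had a count in 0 of the 23 and in 19 of the 20, Obp1b, an odorant-binding protein gene, in 0 and in 18, and Gm9785 in 2 and in 19. Among the 11 B 1PN embryos each of these 3 genes had a count in 0 of 7 with Y-linked counts and in 4 of 4 without. In autosomal Fam173b the same counts were 23 of 23 and 20 of 20.

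In J 2PN embryos this split was not seen for Gm14743 and Obp1b. Of 8 J 2PN embryos with 89 to 962 Y-linked counts, 6 had a count of Gm14743 and 5 of Obp1b, against 9 of 13 for both genes in embryos with at most 1 Y-linked count. The highest level with Y-linked counts was 19.5 CPM for Gm14743 and 2.38 for Obp1b, and without them 33.8 and 15.3. Gm9785 had a count in 0 of the 8 and in 6 of the 13. The other X-linked genes of the set, Gm5924 and Gm6019, had counts in 23 of 23 and 22 of 23 B 2PN embryos with Y-linked counts. They thus did not show the split in the presence of a count. In level, the highest B 2PN value of Gm5924 was 69.4 CPM with Y-linked counts and 258 without. In B 1PN embryos these values were 134 and 131. For Gm6019 the highest B 2PN values were 51.3 and 47.0.

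**Figure D5:**
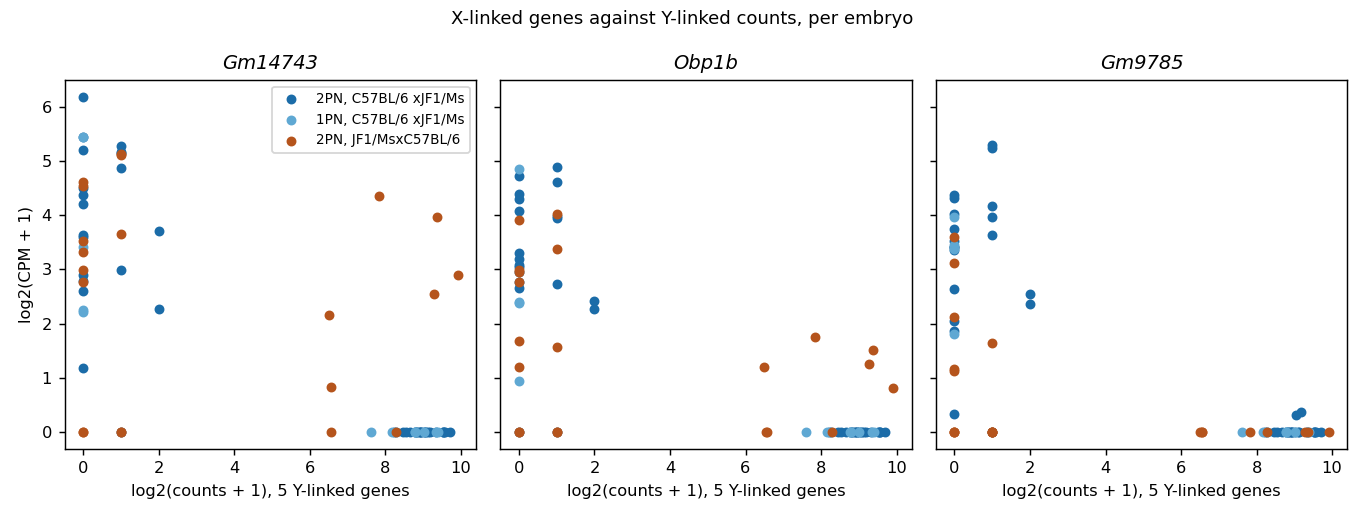
log2(CPM + 1) of the X-linked genes Gm14743, Obp1b and Gm9785 against log2(counts + 1) summed over 5 Y-linked genes, with 1 point for each B 2PN, B 1PN and J 2PN embryo. In the C57BL/6 xJF1/Ms embryos Gm14743 and Obp1b are at 0 in every embryo with Y-linked counts, and in JF1/MsxC57BL/6 they have counts in 6 and 5 of 8 such embryos.

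The J called parthenotes had no count of the 5 Y-linked genes. Gm14743 was at 0, 0, 10.4 and 88.3 CPM in embryos 1, 2, 3 and 7, at least 225-fold higher than in B called parthenotes (adjusted p = 0.00165, edgeR) and at least 31.8-fold without embryo 7, and its difference between crosses of 8.21 (adjusted p = 0.0133) was 5.67 (adjusted p = 0.0929) without embryo 7. Obp1b was at 0, 0, 9.79 and 13.5, at least 53.1-fold higher (adjusted p = 0.00592, edgeR) and at least 29.8-fold without embryo 7. Both genes have nearly the same promoter window, and no source used here says how reads shared by such copies were counted.

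The remaining genes with established names were low or variable in the J groups. Syce1, of the synaptonemal complex of meiosis, was at 0, 6.82, 0 and 0 CPM in J called parthenotes and at 6.05, 13.4 and 7.12 in J 1PN embryos, with no call in J 2PN against called parthenotes (adjusted p = 0.392, edgeR). Sohlh2, a transcription factor of germ cells, was at 0, 0.852, 125 and 38.9 in J called parthenotes and higher than in B called parthenotes (log2 difference 3.66, adjusted p = 0.0227, edgeR), which was 1.91 (adjusted p = 0.27) without embryo 3. H60c, a ligand of the NK cell receptor NKG2D, was at 0, 0.568, 0 and 7.98, against at most 1.59 in B called parthenotes (adjusted p = 0.213, edgeR). The immunoglobulin V segment Igkv9-124 was at 0, 1.14, 15.3 and 6.98 and at least 53.5-fold higher than in B called parthenotes (adjusted p = 3.92e-06, edgeR). Without embryo 3 it was at least 24.7-fold higher.

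Sv2b, a synaptic vesicle protein, and Kcnc2, a potassium channel subunit, were among 5 genes that passed no test outside the groups that chose them; the others were Gm48577, Olfr1052 and AC132460.2. Sv2b was at 0.532, 6.67 and 17.5 CPM in B called parthenotes, which overlapped B 1PN embryos at 0, 20.1 and 38 (log2 fold change -1.31, SE 0.91, adjusted p = 0.436, edgeR). Kcnc2 was at 0, 0 and 8.28 in B called parthenotes against 0, 2.05 and 23.8 (-2.45, SE 1.23, adjusted p = 0.275, edgeR). In these genes the low level of the C57BL/6 parthenotes was not found as a call in the called parthenotes of the cross.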

How the data were processed

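The values are estimated counts per gene that the authors deposited, 1 column for each embryo; 28.4% of the values above 0 were not whole and were rounded for the tests. Per the submitters' processing notes, HISAT2 2.0.5, featureCounts 2.0.0 and GRCm38 were used, and no source used here names the annotation release, the strand setting or how shared reads were counted. The genes, the lists and the comparisons were chosen with earlier results of these data known. Libraries labelled dead or of low quality (4 of 125) were left out. The 47 libraries of the 5 groups outside the rule were fitted with edgeR 4.0.16 (R 4.3.3; TMM scaling, filterByExpr, quasi-likelihood F test, Benjamini-Hochberg adjustment over 20539 genes, threshold 0.05), two-sided; DESeq2 1.42.0 and limma 3.58.1 were alternatives. The script was tested on simulated data. Where a group had no count, a fold is a bound computed with 3 counts over the group. Genes named were the 30 with the highest B 2PN mean among those with established symbols, the 10 called with the largest fold change in each comparison, 3 on either side of the ratio, those on the imprinted lists, and those within 100 kb of another; 2 of the 83 are not reported here by name, though counts and sums include them, and others named were chosen after their values were seen. Gene types, positions and promoter windows are from RefSeq (GRCm38.p6), which matched 61 of the 83 by symbol and 6 by synonym. Alternatives were another scaling, no filter, a fit of all 7 groups, a replicate block, other limits of the rule, and leaving out J called parthenotes.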

Additional observations from a re-analysis of the deposited data

Results flagged for a closer look

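Over 43 gap tests in the J and B called parthenotes (4 and 8 embryos), 4 found an embryo far from the rest of its group. For normally spread values chance flags about 1 in 20 groups, a rate not checked for CPM values with zeros. J called parthenote 7 stood apart for Gm14743, at 88.3 CPM, and for Dok6, at 50.9. B called parthenote 14 stood apart for the summed CPM of the 83 genes, at 195, and B called parthenote 10 for the summed oocyte markers, at 11683.

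The fold change of called parthenotes against the other embryos of their cross differed between crosses in 50 of the 83 genes (edgeR, interaction term). Among the largest log2 differences were 11.03 for AC102519.1, 10.41 for Gm49648, 9.55 for Tnfrsf11b, 9.30 for AC110913.1, 8.97 for Gtpbp4-ps4, 8.41 for Gm5538, 8.26 for Olfr1094 and 8.21 for Gm14743. Where all B called parthenotes were at 0, the fitted value depends on the prior count and is no bound.

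Of the libraries left out of the comparisons, the 2 B 1PN libraries of low quality had summed CPM of the 83 genes of 400.9 (number 6) and 373.7 (number 8), above the highest B called parthenote. The B 1PN library labelled dead (number 16) had 48.8, below every B called parthenote, with summed oocyte markers of 19163 and 2-cell markers of 27.1. The J 2PN library of low quality (number 20) had 1353, from a total of 4803 counts.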

How the results depend on the processing

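With 4 J called parthenotes, 2 of which stood apart, single embryos decided several values. Counts are of the 83 genes unless all genes are named. Under limma voom, J against B called parthenotes gave 33 higher, beside 1946 of all 20539 genes tested. J called parthenotes against J 2PN gave 0 higher and 25 lower, beside 2620 and 4307 of all genes. J 2PN against B 1PN gave 0 higher and 23 lower, beside 1303 and 3128 of all genes. A fit of all 7 groups gave 4 higher in J called parthenotes than in J 2PN, beside 2686 of all 24380 genes. With embryos 1 and 2 both left out, 0 were lower against B called parthenotes and 0 lower against J 2PN. Over all genes the shares were 3.39% and 2.11%. Leaving out 1 J called parthenote at a time gave 43 to 54 higher and 0 to 4 lower against B called parthenotes. Over all genes these fits called 1048 to 1369 higher and 1751 to 3742 lower. Against J 2PN they gave 0 to 3 higher and 3 to 18 lower, beside 686 to 1937 and 1974 to 3819 of all genes. The difference between crosses was above 0 in 40 to 49, beside 186 to 261 of all genes.

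Between J called parthenotes and J 2PN embryos, the only groups checked, replicate numbers did not pair the embryos. Deviations of same-numbered embryos from their group mean had correlations of -0.068, -0.0606, -0.0167 and -0.0143 over 20539 genes. Of the 4 J called parthenotes, 0 correlated best with the J 2PN embryo of their own number. With the number as a replicate block, J against B called parthenotes gave 33 higher and 0 lower, beside 575 and 1676 of 20539 genes. J called parthenotes against J 2PN gave 0 higher and 8 lower, beside 1273 and 2543 of all genes. B called parthenotes against B 1PN gave 42 lower, beside 84 of all genes. J 2PN against B 1PN gave 0 higher, beside 365. The difference between crosses was above 0 in 18, beside 44 of all genes.

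The rule gave 134 genes at a ratio of 1/8, 132 at a minimum of 2 CPM and 47 at 10 CPM. Direction turned for Siah3 without embryo 7 (-3.59 against B called parthenotes, 6.43 the highest with 1 left out; -3.35 and 6.73 between crosses), Vmn1r211 without embryo 3 (-0.84 and 6.99 against B called parthenotes), and Gm49648 against J 2PN under limma voom (-0.054); the cause was not tested. DESeq2's size factors moved the median of all genes from 0.12 to 0.25 for B called parthenotes against B 1PN and from -0.42 to -0.28 for J called parthenotes against J 2PN.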
